A study of Mus musculus with 6 samples.

Results

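The genes described are the 37 genes of the mouse mitochondrial genome, chosen as every row of the count table that lies on chromosome MT, out of 54532 genes listed. They comprise 13 protein genes, 2 rRNA genes and 22 tRNA genes, and 28 of them lie on the plus strand and 9 on the minus strand (mt-Nd6 and 8 tRNA genes). The RNA sequenced came from the whole heart of male mice aged 3 months, on a C57BL/6 background. The 3 α1r/rα2s/s hearts came from mice 368, 369 and 370 and carried the rodent Na/K-ATPase α1, which has a low affinity for cardiotonic steroids (CTS). The 3 α1s/sα2s/s hearts came from mice 379, 380 and 381 and carried an α1 made sensitive to CTS by amino acid substitutions in every tissue, not in the heart alone. Both genotypes carried the CTS-sensitive α2 allele, and the α1r/rα2s/s mice were the control littermates. Each heart is 1 animal, and litters were not given for single hearts. The p-values set a difference between genotypes against the spread between these hearts. The values are counts of reads per gene, with totals of 19309312 to 20470065 per heart.

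The mitochondrial genome is a small circle that is transcribed from both strands into long RNAs. In most places tRNAs sit between the longer genes, and cutting them out of the long RNA releases the mRNAs and rRNAs between them. Its protein genes all encode subunits of the respiratory chain or of ATP synthase, its rRNAs build the mitochondrial ribosome, and its tRNAs serve the translation of these mRNAs. Every other protein that copies, transcribes or translates this genome is encoded in the nucleus. Cardiac muscle is rich in mitochondria, and mitochondrial RNA takes a large part of its transcriptome.

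Several features of the sequence bear on how reads were assigned to these genes, and the stretches that show them are given here, 5′ to 3′ on the gene's strand, from GENCODE M21 transcripts on GRCm38. The 2 genes mt-Nd4l and mt-Nd4 share 7 bases and mt-Atp8 and mt-Atp6 share 43 bases, and capitals mark the shared bases at MT:10147-10193 and MT:7907-7989.
mt-Nd4l/mt-Nd4: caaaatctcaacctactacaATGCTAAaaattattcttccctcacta
mt-Atp8/mt-Atp6: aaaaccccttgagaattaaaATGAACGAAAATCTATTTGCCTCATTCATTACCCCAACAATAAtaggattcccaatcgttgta
The minus-strand gene mt-Nd6 overlaps the plus-strand gene mt-Nd5 by 14 bases. Whether strand was used in counting was not given in the sources used here, so reads of a gene and of RNA from the opposite strand cannot be told apart.

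A stretch of chromosome 1 (chr1:24611535-24616197, minus strand) holds 7 pseudogenes with nearly the same sequence as 7 of these genes. mt-Co2, mt-Atp6, mt-Co3, mt-Nd4l and the first part of mt-Nd4 had 0 mismatches with Gm28661, Gm10925, Gm28437, Gm10222 and Gm28439 over the aligned bases. mt-Nd3 differed from Gm28438 by the substitution T3C, counted from the first base of the gene. mt-Nd4l is printed in full up to the end of the copy (MT:9877-10170), because it is the 1 protein gene that passed the test described further on, and Gm10222 (chr1:24612407-24612700) holds the same 294 bases.
mt-Nd4l and Gm10222: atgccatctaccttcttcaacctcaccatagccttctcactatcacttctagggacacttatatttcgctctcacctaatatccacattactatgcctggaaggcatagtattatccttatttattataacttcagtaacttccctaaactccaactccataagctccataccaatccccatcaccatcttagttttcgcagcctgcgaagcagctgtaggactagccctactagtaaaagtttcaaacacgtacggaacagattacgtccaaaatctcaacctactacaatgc
Only the last part of mt-Co1 is held by Gm29216, with 6 mismatches in 492 bases, all in its first bases, and capitals mark the bases that differ between MT:6381-6420 and chr1:24616158-24616197.
mt-Co1: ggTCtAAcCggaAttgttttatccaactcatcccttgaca
Gm29216: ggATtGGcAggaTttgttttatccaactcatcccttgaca
Of all stretches of 100 bases within a gene, 99.9% of those of mt-Co3 occur in another annotated transcript, 99.5% of those of mt-Co2 and of mt-Atp6, 98.5% of those of mt-Nd4l and 97.6% of those of mt-Nd3. The share was 60.8% for mt-Nd4, 30.8% for mt-Co1 and 3.19% for mt-Nd2, and 0 for the other protein genes and both rRNAs. A read that lies wholly in such a stretch matches both places, and how such reads were counted was not given in the sources used here.

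The mitochondrial genes took a larger share of all counts in α1s/sα2s/s than in α1r/rα2s/s hearts. The share was 23.9%, 23.4% and 24.4% in the hearts of mice 368, 369 and 370 and 25.0%, 25.3% and 26.0% in those of mice 379, 380 and 381. The genotypes did not overlap. The mean was 23.9% ± 0.476 (SD, n = 3) in α1r/rα2s/s and 25.4% ± 0.492 (SD, n = 3) in α1s/sα2s/s hearts, a difference of 1.54 percentage points (two-sided p = 0.1 by exact permutation; a design of 3 against 3 hearts cannot go lower). In bulk tissue, fewer cells of a type and less RNA per cell cannot be told apart, and a share can also rise because other RNA is lower.

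Most of this RNA came from the protein genes, whose share of all counts was 22.8% ± 0.401 (SD, n = 3) in α1r/rα2s/s and 23.9% ± 0.388 (SD, n = 3) in α1s/sα2s/s hearts. The 2 rRNA genes rose more in proportion. Their share of all counts was 0.933%, 0.902% and 1.04% in α1r/rα2s/s hearts and 1.21%, 1.44% and 1.44% in α1s/sα2s/s hearts. The means of the rRNA share were 0.960% ± 0.0746 and 1.36% ± 0.131 (SD, n = 3 each), and for both classes the genotypes did not overlap (exact permutation test, two-sided p = 0.1). The 22 tRNA genes took 0.118% ± 0.00509 and 0.131% ± 0.0108 of all counts (SD, n = 3 each), and here the genotypes overlapped (exact permutation test, two-sided p = 0.2).

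**Figure D1:**
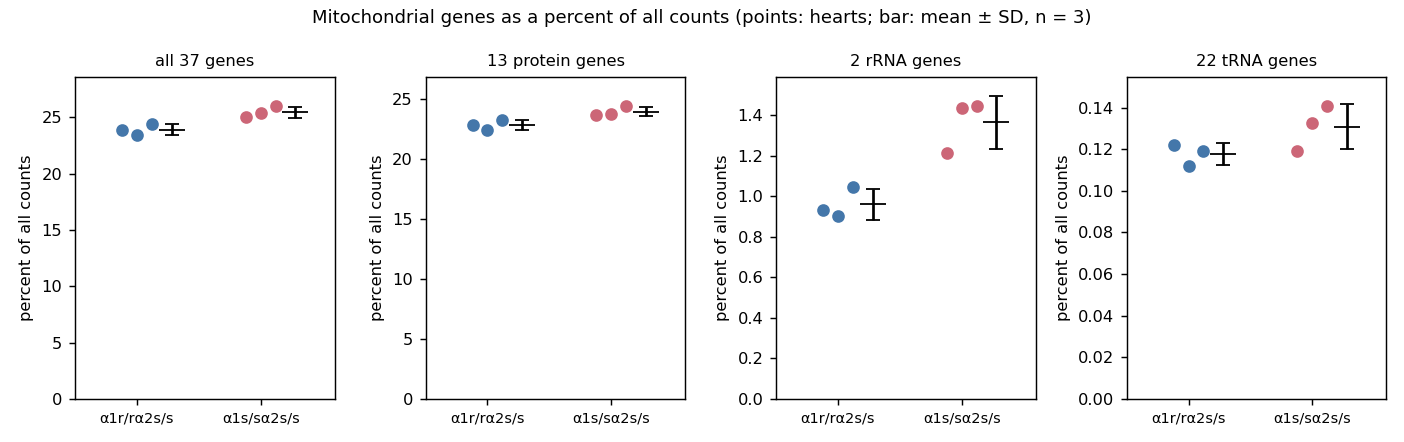
Percent of all counts (vertical axes, from 0) taken by all 37 mitochondrial genes, the 13 protein genes, the 2 rRNA genes and the 22 tRNA genes, with 1 point per heart and the mean ± SD of 3 hearts beside the points. The α1s/sα2s/s hearts lie above the α1r/rα2s/s hearts for all genes, protein genes and rRNA genes, where the rRNA means were 0.960% and 1.36%, and the genotypes overlap for tRNA genes.

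Within the mitochondrial counts the balance of the classes moved toward the rRNAs. Protein genes made up 95.5% ± 0.233 of the mitochondrial counts in α1r/rα2s/s and 94.1% ± 0.474 in α1s/sα2s/s hearts (SD, n = 3 each). The rRNA genes made up 3.91%, 3.85% and 4.28% in α1r/rα2s/s hearts and 4.85%, 5.67% and 5.56% in α1s/sα2s/s hearts. For both classes the genotypes did not overlap (exact permutation test, two-sided p = 0.1), and the rRNA share was higher by 1.35 percentage points. The tRNA genes made up 0.493% ± 0.0167 and 0.514% ± 0.0331 (SD, n = 3 each; exact permutation test, two-sided p = 0.4).

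The 9 minus-strand genes held 3.77% ± 0.0885 of the mitochondrial counts in α1r/rα2s/s and 3.58% ± 0.188 in α1s/sα2s/s hearts (SD, n = 3 each), and the genotypes overlapped (exact permutation test, two-sided p = 0.3). Most of these were mt-Nd6, a subunit of complex I, which alone held 3.37% ± 0.0802 and 3.18% ± 0.207. Grouped by the complex they serve, the genes of complex I, which feeds electrons from NADH into the chain, made up 39.7% ± 0.615 and 38.6% ± 0.735 of the mitochondrial counts. The gene of complex III, mt-Cytb, made up 14.9% ± 0.135 and 14.5% ± 0.525, and those of complex IV, the terminal oxidase, 40.8% ± 0.544 and 40.9% ± 0.490. The 2 genes of ATP synthase, complex V, made up 0.0829% ± 0.0404 and 0.0786% ± 0.0138. No complex separated the genotypes (exact permutation tests, two-sided p = 0.2, 0.4, 0.8 and 0.9 for complexes I, III, IV and V). mt-Co2 and mt-Co3 of complex IV, mt-Atp6 of complex V and mt-Nd3 and mt-Nd4l of complex I lie almost wholly in shared sequence. The shares of their complexes, above all complex V, need not stand for the level of RNA.

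The genes differed widely in level, here as CPM (counts scaled to library size with TMM factors) per kilobase of gene, averaged over the 6 hearts. mt-Co1, the catalytic subunit of complex IV, was highest at 65072 CPM per kilobase, and it alone made up 40.6% ± 0.605 of the mitochondrial counts in α1r/rα2s/s and 40.7% ± 0.498 in α1s/sα2s/s hearts (SD, n = 3 each). mt-Cytb followed at 31698, mt-Nd1 at 25766 and mt-Nd2 at 17482. mt-Nd6, mt-Nd5 and mt-Nd4 lay close together at 15565, 14334 and 14065 CPM per kilobase, and the ranges of these 3 genes over the hearts overlapped.

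The remaining protein genes were far lower, at 540 CPM per kilobase for mt-Nd3, 438 for mt-Co3, 357 for mt-Co2, 281 for mt-Atp6, 242 for mt-Nd4l and 38.8 for mt-Atp8. Apart from mt-Atp8, these are the genes for which 97.6% or more of the stretches of 100 bases occur in another annotated transcript. Sequence outside annotated transcripts was not searched, and mt-Atp8 lies between mt-Co2 and mt-Atp6, which both have a chromosome 1 copy. mt-Co2 and mt-Co3 are subunits of the same complex as mt-Co1, mt-Atp6 and mt-Atp8 are subunits of ATP synthase, and mt-Nd3 and mt-Nd4l are subunits of complex I. mt-Nd4l shares its long transcript with mt-Nd4, yet its counts were 0.00324 ± 0.000105 times those of mt-Nd4 in α1r/rα2s/s and 0.00416 ± 0.000386 times in α1s/sα2s/s hearts (SD, n = 3 each). Counts on these genes need not stand for the level of their RNA, and the part of shared reads in them was not tested. The rRNAs mt-Rnr2 and mt-Rnr1 had 5461 and 3210 CPM per kilobase.

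Among the tRNA genes, those of the minus strand were on the whole higher. The median over the 8 minus-strand tRNA genes was 839 CPM per kilobase (range 1.06 to 5402), against 193 (range 0.250 to 753) over the 14 plus-strand ones, as a description. The 2 highest were mt-Tp for proline (5402 CPM per kilobase, MT:15356-15422) and mt-Tc for cysteine (4683, MT:5192-5257), both on the minus strand. The highest plus-strand tRNA gene was mt-Tl1 for leucine (753, MT:2676-2750), which begins at the base after mt-Rnr2 ends and is 1 of the genes that rose. Among the lowest, mt-Tf for phenylalanine (MT:1-68) had 0.866 CPM per kilobase, and mt-Tk and mt-Td were lower still at 0.255 and 0.250. The sequences of mt-Tp and mt-Tc as the highest, of mt-Tl1 as a gene that rose and of mt-Tf as a low one are shown.
mt-Tp: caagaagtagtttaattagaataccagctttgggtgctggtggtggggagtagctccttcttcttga
mt-Tc: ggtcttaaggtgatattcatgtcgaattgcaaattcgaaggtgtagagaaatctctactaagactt
mt-Tl1: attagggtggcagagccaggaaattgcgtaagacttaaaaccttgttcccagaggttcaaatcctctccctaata
mt-Tf: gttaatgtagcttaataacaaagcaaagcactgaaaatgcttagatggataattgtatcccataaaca
The 5 tRNA genes mt-Tf, mt-Tv, mt-Ts1, mt-Td and mt-Tk had at most 18 counts in any heart and were not tested. Of these, mt-Ts1, mt-Td and mt-Tk lie between genes held by chromosome 1 too. So do mt-Tg and mt-Tr, which had 283 to 448 and 173 to 223 counts per heart. Copies of these tRNA genes outside annotated transcripts were not searched for. mt-Td for aspartate had 0 counts in all 3 α1r/rα2s/s hearts, which allows up to 3 counts per heart. RNA was purified on a column kit made for longer RNA, so mature tRNAs of this length are largely outside the assay, and counts on tRNA genes need not stand for mature tRNA.

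**Figure D2:**
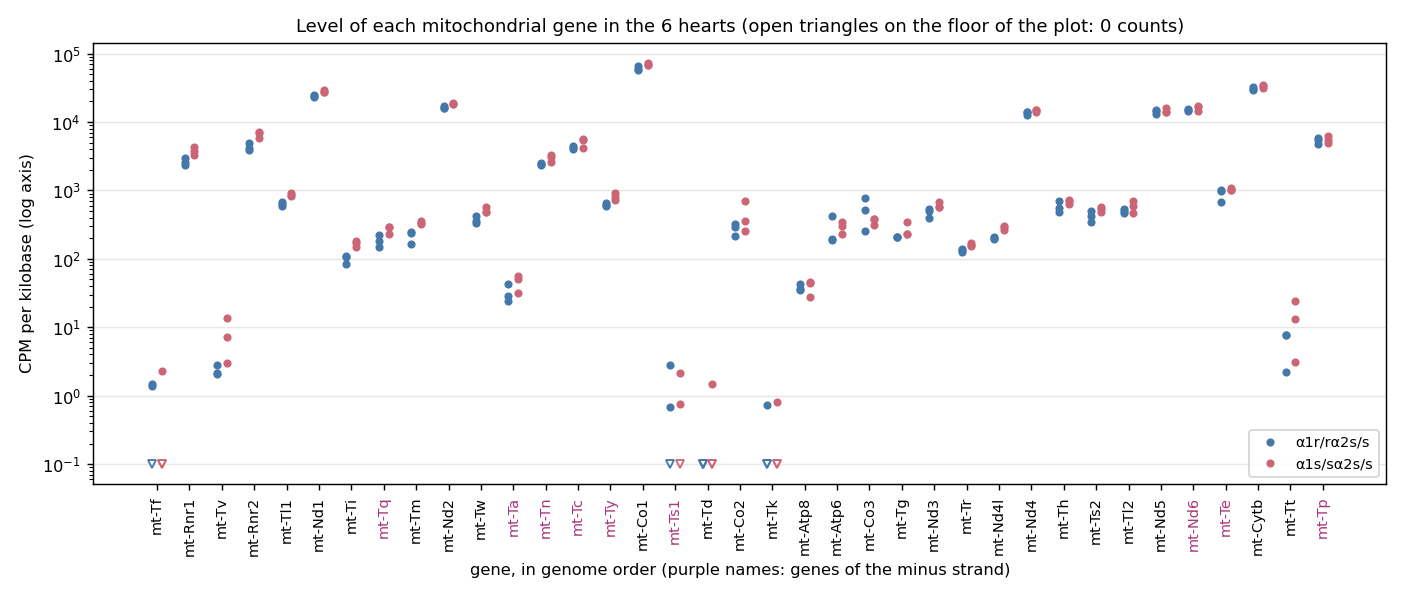
CPM per kilobase (vertical axis, log scale) of the 37 genes in genome order (horizontal axis), with 1 point per heart, α1r/rα2s/s hearts to the left and α1s/sα2s/s hearts to the right of each gene, names of minus-strand genes in purple and open triangles for 0 counts. Levels run from 0.250 for mt-Td to 65072 for mt-Co1, and mt-Co2, mt-Atp8, mt-Atp6, mt-Co3, mt-Nd3 and mt-Nd4l sit far below the other protein genes.

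To ask which of these genes differed between genotypes, counts were fitted over the whole table with edgeR. Of the 32 mitochondrial genes tested, 7 were higher in α1s/sα2s/s hearts at an adjusted p under 0.05 and 0 were lower, against 1.44% of all 14866 genes tested in either direction and 0.780% in that direction. They were both rRNAs, mt-Nd4l and the tRNA genes mt-Tl1, mt-Ti, mt-Tm and mt-Ty. In all, 31 of the 32 had a positive log2 fold change (with library totals alone, mt-Atp8, mt-Nd5 and mt-Tp also turned negative beside mt-Co3), with a median of 0.29 beside -0.01 over all genes tested. In 17 of the 32 every α1s/sα2s/s heart lay above every α1r/rα2s/s heart, against 10.01% of all genes tested, and in 0 of the 32 below, against 9.98%. These genes share transcripts and a base of counts, so they are not independent of each other.

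The large rRNA mt-Rnr2 (MT:1094-2675) had 6521, 6230 and 7718 CPM in the hearts of mice 368, 369 and 370 and 9130, 11014 and 11219 CPM in those of mice 379, 380 and 381. Every α1s/sα2s/s heart was above every α1r/rα2s/s heart. The log2 fold change was 0.62 ± 0.098 (SE; edgeR adjusted p = 0.00571). The small rRNA mt-Rnr1 (MT:70-1024) had 2484, 2255 and 2846 CPM in α1r/rα2s/s and 3188, 3562 and 4061 CPM in α1s/sα2s/s hearts. It too separated the genotypes, with a log2 fold change of 0.51 ± 0.099 (SE; edgeR adjusted p = 0.0216), and the adjusted p was 0.0550 to 0.0851 when the heart of mouse 368, 369, 380 or 381 was left out. The counts of mt-Rnr2 were 2.70 ± 0.0693 times those of mt-Rnr1 in α1r/rα2s/s and 2.91 ± 0.169 times in α1s/sα2s/s hearts, and this ratio overlapped between genotypes (SD, n = 3 each; exact permutation test, two-sided p = 0.2).

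Whether libraries were made from polyadenylated RNA was not given in the sources used here, and the labels differ, with total RNA as the molecule of each sample and mRNA in the description of the series. For nuclear-encoded RNAs that mostly lack a poly(A) tail the values were as follows. Rows of nuclear-encoded rRNA had 3033, 3612 and 3612 CPM in α1r/rα2s/s and 3434, 2610 and 2954 CPM in α1s/sα2s/s hearts. Small nuclear RNA rows had 18.9 ± 3.51 and 19.2 ± 1.87 CPM, and small nucleolar and Cajal body RNA rows 30.0 ± 5.17 and 27.0 ± 1.90 CPM (SD, n = 3 each). All 3 overlapped between genotypes (exact permutation tests, two-sided p = 0.2, 0.9 and 0.6), and the part of library selection in the mitochondrial rRNA values was not tested.

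mt-Tl1, next to mt-Rnr2 on the long transcript, had 47.8, 44.7 and 50.5 CPM in α1r/rα2s/s and 63.6, 62.9 and 69.5 CPM in α1s/sα2s/s hearts. The genotypes did not overlap, and the log2 fold change was 0.46 ± 0.079 (SE; edgeR adjusted p = 0.0109). mt-Ti for isoleucine (MT:3706-3774) had 7.53, 5.82 and 7.32 CPM against 10.1, 11.6 and 12.6 CPM. Its log2 fold change was the largest of the 7, at 0.73 ± 0.155 (SE; edgeR adjusted p = 0.0314), on 122 to 243 counts per heart. mt-Tm for methionine (MT:3845-3913) had 16.5, 11.3 and 17.1 CPM against 22.8, 22.4 and 25.0 CPM, with a log2 fold change of 0.65 ± 0.138 (SE; edgeR adjusted p = 0.0318). mt-Ty for tyrosine (MT:5260-5326), the 1 minus-strand gene among the 7, had 43.2, 39.6 and 40.6 CPM against 48.7, 53.3 and 60.9 CPM, with a log2 fold change of 0.40 ± 0.090 (SE; edgeR adjusted p = 0.0394). Each of the last 3 passed in 1 of the 6 fits that left out a heart, mt-Ti and mt-Ty without mouse 379 and mt-Tm without mouse 370.

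mt-Nd4l (MT:9877-10173), the gene printed above, had 62.1, 57.5 and 60.5 CPM in α1r/rα2s/s and 86.1, 88.1 and 77.0 CPM in α1s/sα2s/s hearts. It was the 1 protein gene of 13 to pass, with a log2 fold change of 0.48 ± 0.076 (SE; edgeR adjusted p = 0.00571). Its identical copy Gm10222 had 611 to 614 counts in α1r/rα2s/s and 605, 858 and 935 in α1s/sα2s/s hearts. With both summed, the value was 91.4, 86.8 and 91.2 CPM in α1r/rα2s/s and 116, 133 and 125 CPM in α1s/sα2s/s hearts, and the log2 fold change was 0.48 (edgeR adjusted p = 0.00380). The sum thus gave a difference of the same size, but it holds only reads that were counted on the gene or the copy. How reads that match both were counted was not given, so the sum cannot settle the level of mt-Nd4l RNA. mt-Nd4, which follows it on the same transcript, had 19008, 17315 and 19400 CPM against 19500, 20320 and 20746 CPM, with a log2 fold change of 0.12 ± 0.075 (SE; edgeR adjusted p = 0.494).

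**Figure D3:**
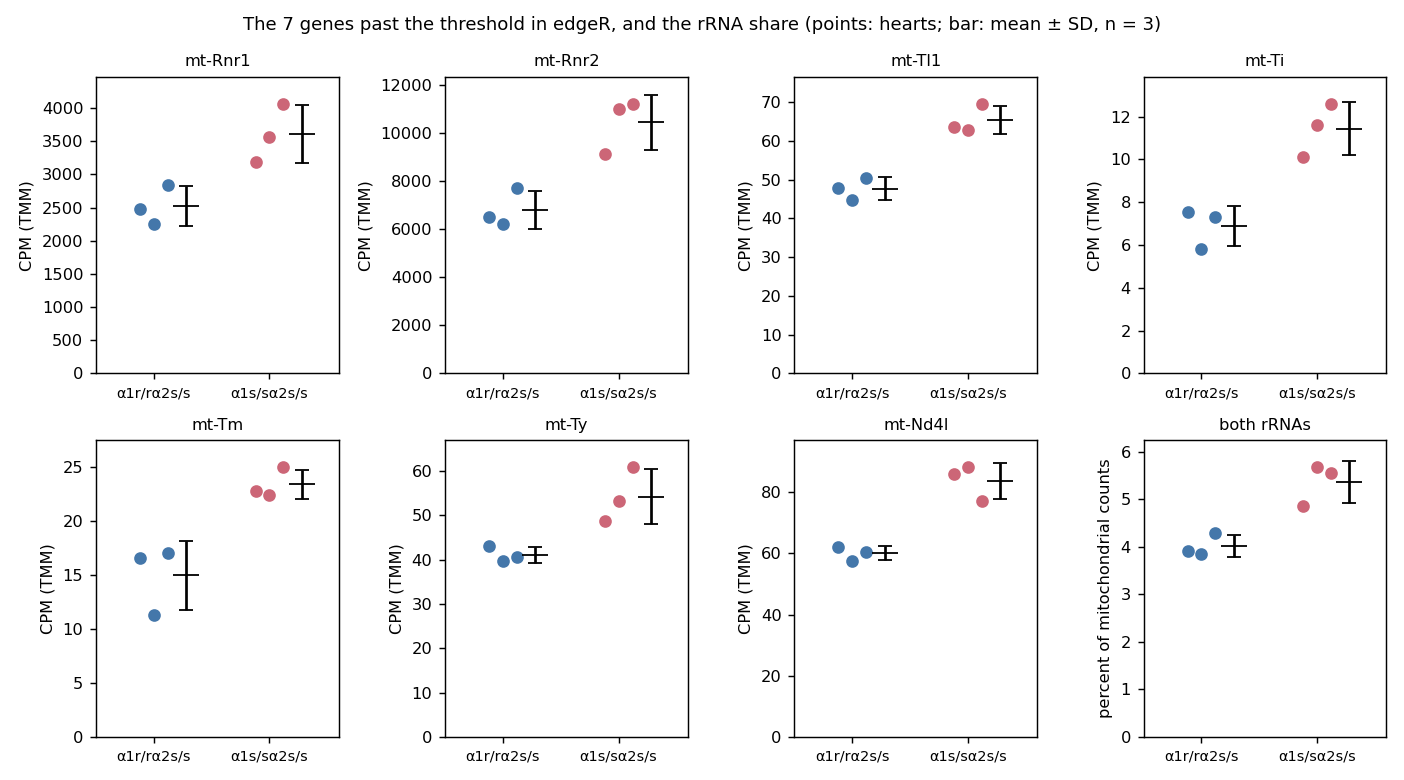
CPM (vertical axes, from 0) of the 7 genes past the threshold in edgeR, in genome order, and the percent of mitochondrial counts taken by both rRNAs, with 1 point per heart and the mean ± SD of 3 hearts beside them. In every panel the 3 α1s/sα2s/s hearts lie above the 3 α1r/rα2s/s hearts, as for mt-Rnr2 with at most 7718 CPM in α1r/rα2s/s and at least 9130 CPM in α1s/sα2s/s hearts.

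The abundant protein genes had small positive log2 fold changes that did not pass the test. mt-Nd1 had 23070, 21843 and 23682 CPM in α1r/rα2s/s and 27629, 25852 and 25873 CPM in α1s/sα2s/s hearts. mt-Nd2 had 16507, 16436 and 17837 CPM against 18880, 19303 and 19918 CPM. These 2 complex I subunits and mt-Co1, with 89756 to 101436 CPM against 103322 to 113176 CPM, did not overlap between genotypes. Their log2 fold changes were 0.21, 0.19 and 0.18 (edgeR adjusted p = 0.191, 0.225 and 0.333). For mt-Cytb, mt-Nd6 and mt-Nd5 the genotypes overlapped, with log2 fold changes of 0.13, 0.09 and 0.04 (edgeR adjusted p = 0.468, 0.650 and 0.862). mt-Nd5, the longest gene, had 26079, 24123 and 27073 CPM against 25436, 25062 and 29101 CPM.

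DESeq2, the tool named in the study's methods, called 13 of the 30 mitochondrial genes with an adjusted p, against 3.65% of all genes with one. All 13 were higher in α1s/sα2s/s hearts. Beside the 7 above these were mt-Nd1, mt-Nd2, mt-Nd3 and the tRNA genes mt-Tq, mt-Tw and mt-Tn for glutamine, tryptophan and asparagine (DESeq2 adjusted p = 0.00905, 0.0186, 0.0194, 0.0465, 0.0120 and 0.0161). In edgeR these 6 had log2 fold changes of 0.19 to 0.53 and adjusted p of 0.0542 to 0.225. None of the other tested tRNA genes passed in edgeR or in DESeq2, where mt-Ta and mt-Tt had no adjusted p. Their edgeR log2 fold changes were positive, from 0.04 for mt-Tp to 1.16 for mt-Tt. Between these lay mt-Te for glutamate at 0.20, mt-Tl2 for leucine at 0.22, mt-Th for histidine at 0.24, mt-Tr for arginine at 0.26, mt-Tc at 0.27, mt-Ts2 for serine at 0.34, mt-Tg for glycine at 0.37 and mt-Ta for alanine at 0.56, with edgeR adjusted p of 0.196 to 0.465. mt-Tt for threonine rests on 3 to 31 counts per heart and its log2 fold change had an SE of 0.66.

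Of the 30 genes with at least 100 counts in every heart, mt-Co2, mt-Atp6 and mt-Co3, all held by chromosome 1 too, varied most between hearts of 1 genotype. Their coefficients of variation reached 53.4%, 49.99% and 51.1%, and the share of counts on the gene rather than its copy differed between hearts. mt-Co3 had 614, 198 and 408 CPM in α1r/rα2s/s and 244, 299 and 297 CPM in α1s/sα2s/s hearts, and was the 1 gene with a negative log2 fold change (-0.54 ± 0.253, SE; edgeR adjusted p = 0.349). Without the heart of mouse 369 it was -0.86 (edgeR adjusted p = 0.00498). The mitochondrial gene held 78.5%, 53.0% and 65.2% of the counts on mt-Co3 and Gm28437 together in α1r/rα2s/s hearts and 29.5%, 53.1% and 56.4% in α1s/sα2s/s hearts. With both summed the log2 fold change was positive, at 0.11 (edgeR adjusted p = 0.857), so no direction is given for mt-Co3.

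mt-Co2 had 200, 149 and 219 CPM in α1r/rα2s/s and 481, 241 and 177 CPM in α1s/sα2s/s hearts, with a log2 fold change of 0.66 ± 0.251 (SE; edgeR adjusted p = 0.230), and the heart of mouse 379 stood far above the other 5. With Gm28661 added it had 413, 323 and 407 CPM against 701, 656 and 386 CPM, which still overlapped. mt-Atp6 had 290, 134 and 128 CPM against 154, 205 and 236 CPM, with a log2 fold change of 0.11 (edgeR adjusted p = 0.878). mt-Atp8 had 5.70 to 9.32 CPM over all hearts and a log2 fold change of 0.04 (edgeR adjusted p = 0.943). mt-Nd3 kept 87.9% to 90.3% of the counts in the gene in 5 hearts and 80.5% in that of mouse 381. Its values, 173, 137 and 185 CPM against 200, 196 and 237 CPM, did not overlap, with a log2 fold change of 0.36 (edgeR adjusted p = 0.118) and 0.42 with its copy added (edgeR adjusted p = 0.0976).

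**Figure D4:**
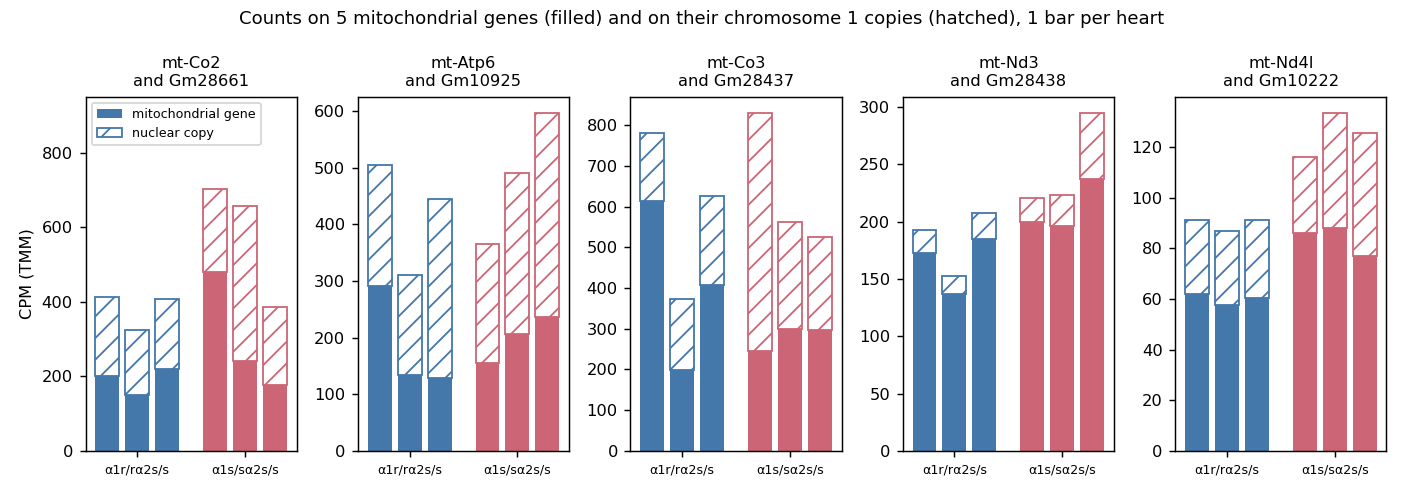
CPM (vertical axes, from 0) on 5 mitochondrial genes (filled) stacked under the CPM on their chromosome 1 copies (hatched), with 1 bar per heart in the order of mice 368, 369, 370, 379, 380 and 381. The division between gene and copy shifts from heart to heart, most for mt-Co3 (gene share 29.5% to 78.5%), while the summed bars of mt-Nd4l stay at 86.8 to 91.4 CPM in α1r/rα2s/s and 116 to 133 CPM in α1s/sα2s/s hearts.

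The size of the difference varied along the genome. The 15 genes that precede mt-Co1 in the numbering of the genome include both rRNAs, mt-Nd1, mt-Nd2 and 11 tRNA genes. Of the 13 of them tested, 6 passed in edgeR, 13 had positive log2 fold changes and 11 did not overlap between genotypes, with a median log2 fold change of 0.46 (range 0.19 to 0.73). Of the 19 tested from mt-Co1 on, 1 passed, 18 had positive values and 6 did not overlap, with a median of 0.20 (range -0.54 to 1.16). The lowest of these is mt-Co3, for which no direction is given. Over all genes tested, 0.780% passed as higher and 10.01% lay higher without overlap. Across the 30 genes with at least 100 counts in every heart, Spearman's rho between position in genome order and log2 fold change was -0.61, and over all 32 tested genes it was -0.48, as a description, since these genes share transcripts, libraries and a common base of counts. The division at mt-Co1 was chosen after the values were seen. All genes with a chromosome 1 copy and most protein genes lie from mt-Co1 on. Over all tested genes, position is therefore mixed with RNA class and with the copy. Among tested tRNA genes alone, log2 fold changes were 0.27 (mt-Tc) to 0.73 (mt-Ti) before mt-Co1. After it they were 0.04 (mt-Tp) to 0.37 (mt-Tg), apart from mt-Tt at 1.16, on 3 to 31 counts per heart. Among protein genes without a chromosome 1 copy, mt-Nd1 and mt-Nd2 before mt-Co1 had 0.21 and 0.19. After it, mt-Cytb, mt-Nd6, mt-Nd5 and mt-Atp8 had 0.13, 0.09, 0.04 and 0.04. Position within a class was not tested. By strand, 6 of 24 plus-strand and 1 of 8 minus-strand genes passed, with medians of 0.30 and 0.29.

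**Figure D5:**
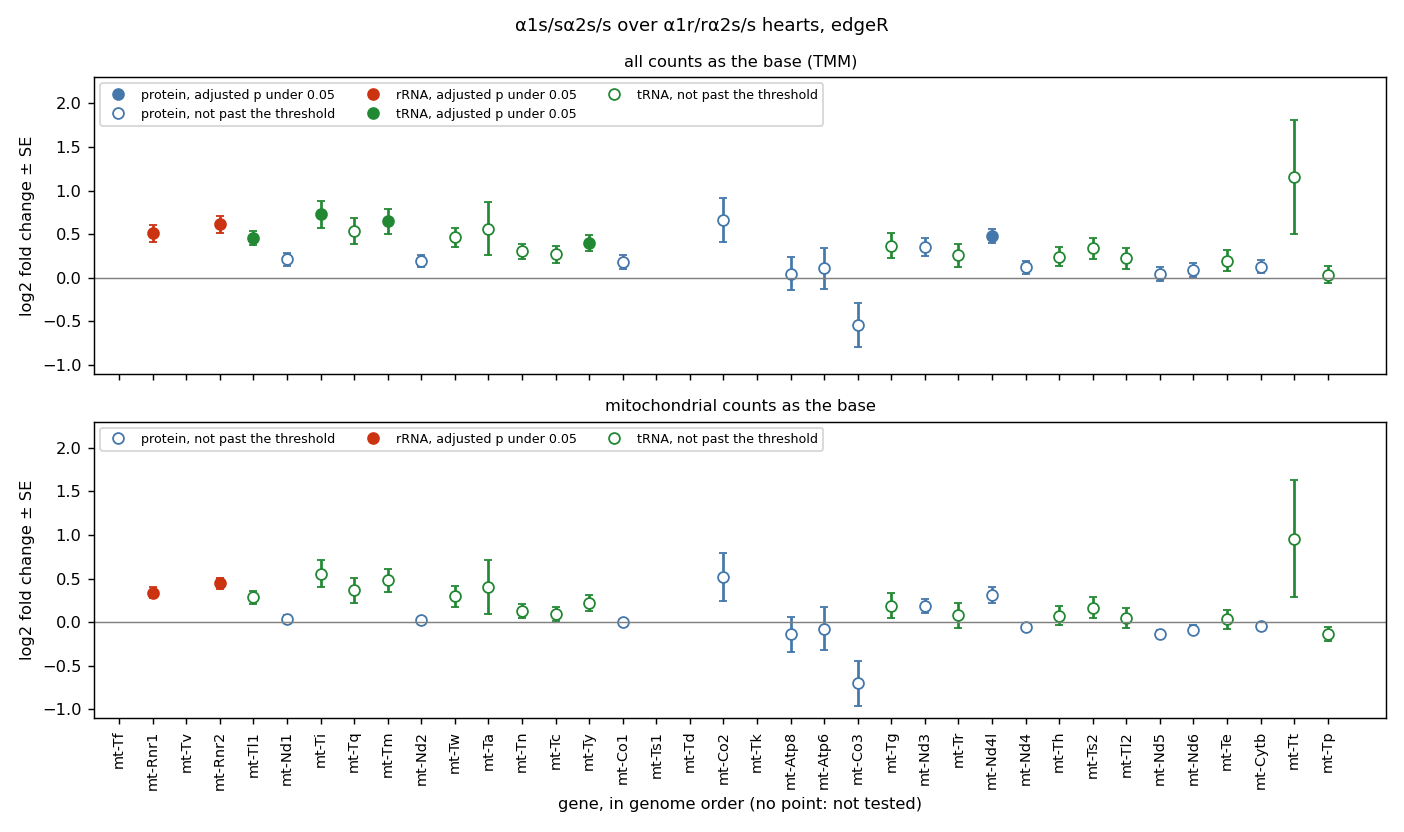
Log2 fold change ± SE (vertical axes, α1s/sα2s/s over α1r/rα2s/s hearts, edgeR) of the 32 tested genes in genome order, with all counts as the base above and the mitochondrial counts as the base below, filled where the adjusted p is under 0.05. Above, 7 genes are filled and the 6 to the left of mt-Co1 include both rRNAs, and below only the rRNAs are filled, at 0.34 and 0.45.

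A further fit took each gene as a share of the mitochondrial counts, which removes the rise of the total. On this base the median of all genes tested was -0.18, and 2.89% of them passed, with 31 of the 430 called higher. The 2 rRNAs passed, mt-Rnr2 with a log2 fold change of 0.45 ± 0.062 (SE; edgeR adjusted p = 0.00394) and mt-Rnr1 with 0.34 ± 0.064 (SE; edgeR adjusted p = 0.0193). mt-Rnr2 was 2.83%, 2.83% and 3.13% of the mitochondrial counts in α1r/rα2s/s and 3.60%, 4.28% and 4.08% in α1s/sα2s/s hearts. mt-Rnr1 was 1.08%, 1.02% and 1.15% against 1.26%, 1.39% and 1.48%, and it did not pass when the heart of mouse 368, 369, 380 or 381 was left out (edgeR adjusted p = 0.0517 to 0.0811).

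The protein genes had a median log2 fold change of -0.04 on this base, which they themselves largely set, since they make up most of the mitochondrial counts. mt-Co1, mt-Nd2, mt-Nd1, mt-Cytb and mt-Nd4 had values of 0.00, 0.02, 0.04, -0.04 and -0.05 (edgeR adjusted p = 0.396 to 0.923). mt-Nd5 made up 11.3%, 10.9% and 11.0% of the mitochondrial counts in α1r/rα2s/s and 10.02%, 9.75% and 10.6% in α1s/sα2s/s hearts. It was the 1 mitochondrial gene whose share was lower without overlap, with a log2 fold change of -0.13 ± 0.037 (SE; edgeR adjusted p = 0.0699). Of the 32 tested, 9 had a higher share without overlap, and the matching numbers over all genes were not computed on this base. mt-Nd4l, at 0.31, and the tRNA genes mt-Tl1, mt-Ti and mt-Tm, at 0.28, 0.56 and 0.48, had adjusted p of 0.0744, 0.0616, 0.0647 and 0.0668 in edgeR. The share of mt-Tl1, 0.0203% to 0.0207% against 0.0245% to 0.0253%, varied little within each genotype.

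The respiratory chain also needs subunits encoded in the nucleus, and these were set beside the mitochondrial ones. Of the 72 nuclear genes tested for subunits of complexes I, III, IV and V, 0 passed in edgeR, 71 had positive log2 fold changes and the median was 0.11, with 0 passing in DESeq2. An unadjusted p under 0.05 was found for 8 of the 72, against 2150 of all 14866 genes tested, so that count says nothing particular of these subunits. The log2 ratio of summed counts of the mitochondrial protein genes over these nuclear genes was 2.69, 2.74 and 2.77 in α1r/rα2s/s and 2.74, 2.81 and 2.76 in α1s/sα2s/s hearts. The ratio overlapped between genotypes, with a difference of 0.04 (exact permutation test, two-sided p = 0.4). With a median over genes in place of the sum the difference was -0.057 (exact permutation test, two-sided p = 0.3), so no direction is given. By complex, the difference of the log2 ratio was 0.02 for complex I, 0.02 for complex III, 0.08 for complex IV and 0.06 for complex V, all overlapping. The value for complex V rests on mt-Atp6 and mt-Atp8, and that for complex IV in part on mt-Co2 and mt-Co3. Counts on these genes need not stand for their RNA.

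The nuclear genes that replicate, transcribe, process or degrade mitochondrial nucleic acids were set beside these values too. Of 67 tested, 0 passed in edgeR or DESeq2, 8 had an unadjusted p under 0.05 in edgeR (against 2150 of all 14866 genes tested), 41 had positive log2 fold changes and the median was 0.05. Tfam, which packs and helps transcribe the mitochondrial genome, had 42.6, 41.7 and 45.9 CPM in α1r/rα2s/s and 41.8, 46.5 and 49.9 CPM in α1s/sα2s/s hearts (log2 fold change 0.09, edgeR adjusted p = 0.686). Polrmt, the mitochondrial RNA polymerase, had 27.7, 27.9 and 26.6 CPM against 26.3, 28.5 and 30.7 CPM (0.05, edgeR adjusted p = 0.837). Both overlapped between genotypes.

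Markers of the cell types of the heart were counted in the same libraries. The 8 cardiomyocyte markers were all tested, 0 passed, and their summed level was 48275 to 59125 CPM in α1r/rα2s/s and 52963 to 57464 CPM in α1s/sα2s/s hearts. Of 46 markers for 9 cell types 44 were tested and 1 passed, the endothelial and adipocyte lipid carrier Fabp4 (log2 fold change 0.39, edgeR adjusted p = 0.0358), named after its value was seen. Of the 6 endothelial markers, 3 had positive log2 fold changes, with a median of -0.01. At an unadjusted p under 0.05 were 12 of the 44, against 2150 of all 14866 genes tested. All 4 atrial, all 4 smooth muscle and all 4 macrophage markers had negative log2 fold changes, with medians of -0.47, -0.39 and -0.39, and the median of the 6 fibroblast markers was -0.21. Positive values were found for 6 of 8 cardiomyocyte, all 5 erythroid, all 3 tested adipocyte and 3 of 4 tested skeletal muscle markers. The medians of these 4 types were 0.07, 0.66, 0.93 and 0.31. Summed levels overlapped between genotypes for every type except adipocytes. The macrophage sum was 114 to 171 CPM in α1r/rα2s/s and 87.1 to 116 CPM in α1s/sα2s/s hearts, and the adipocyte sum, with Ucp1 at 0, was 0.753 to 1.72 CPM and 1.84 to 3.77 CPM. The erythroid sum ran from 536 to 1270 CPM in α1r/rα2s/s and from 401 to 3183 CPM in α1s/sα2s/s hearts. The part of cell composition in the mitochondrial results was not tested.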

How the data were processed

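RNA was extracted from whole hearts with Trizol and a column kit and sequenced by a company on a NovaSeq system. Per the submitters' processing notes, reads were processed with fastp, STAR and featureCounts on mm10, and versions, options, strand setting and the handling of reads that match several places are not given in the sources used here. What the authors deposited are raw counts, not normalized. Their deposited comparison table (mean normalized counts, log2 fold changes, errors, statistics and p-values) was not used. Groups came from the genotype label.

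Counts were analysed in R 4.3.3 with edgeR 4.0.16 (TMM, filterByExpr with a minimum count of 10 and a minimum total of 15, quasi-likelihood test on genotype, Benjamini-Hochberg adjustment over all genes tested, threshold 0.05). A further fit used the mitochondrial total as library size. Shares and ratios were compared by exact two-sided permutation tests. An SE is the log2 fold change over the square root of F. Hearts of 1 genotype differed beyond counting noise (chi-square per gene 6.93 to 13.3), so none was the same library sequenced again. That each was a separate animal rests on the mouse numbers. All 37 genes had the coordinates of GENCODE M21. At 19309312 to 20470065 counts per heart the spread between hearts exceeded counting error for abundant genes, and floors cover counting error only. Fits were tested on simulated data.

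All protein and rRNA genes and the tested tRNA genes were to be named, with Tfam and Polrmt, and some further planned single genes are not reported here. Alternatives were DESeq2 1.42.0 (filter at 0.1), other normalizations and filters, summed overlapping genes and leaving out each heart; summing chromosome 1 copies, a robust prior and a ratio without those genes were chosen after seeing the data. The genes and lists were chosen with earlier results of these data known.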

Additional observations from a re-analysis of the deposited data

How the results depend on the processing

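The number of mitochondrial genes past the threshold was 7, and 6 to 8 with RLE or upper-quartile factors, factors without mitochondrial rows, at least 10 counts in every heart, summed overlapping genes, summed chromosome 1 copies or a robust prior. It was 13 with DESeq2, 17 with no filter (mt-Co3 among them, lower) and 4 with library totals alone, where 47 of 183 calls over all genes were higher against 116 of 214. Leaving out 1 heart gave 3 to 8, with 3 without mouse 368, 380 or 381 and 4 without mouse 369. Over all genes tested, the main fit and the alternatives named first called 211 to 268. DESeq2 called 403 of 11038 genes, the fit with no filter 618 of 28183 and those leaving out 1 heart 80 to 158. mt-Rnr2, mt-Tl1 and mt-Nd4l passed in every alternative that could hold them, with adjusted p up to 0.0381, 0.0470 and 0.0308. On the mitochondrial base the number was 2, with DESeq2 6, no filter 8, and 1 to 2 leaving out a heart (1 without mouse 368 or 380). Over all genes, calls on this base were 430 of 14866, with DESeq2 1053 of 11558, with no filter 1414 of 28183 and leaving out a heart 66 to 830. As shares of all counts, the difference was 1.125 percentage points for protein genes (-1.37 as a share of mitochondrial counts), 0.405 for rRNA genes (1.35), 0.0115 for the minus strand (-0.184), 0.351 for complex I (-1.02), 0.117 for complex III (-0.446), 0.656 for complex IV (0.103) and 0.000254 for complex V (-0.00427). Without the rRNAs it was -0.0302 for protein genes and 0.713 for complex IV. Leaving out 1 heart gave -0.180 to 0.375 for complex IV (-0.180 without mouse 368, -0.100 without mouse 381) and -0.0183 to 0.0189 for complex V (0.0189 without mouse 368, 0.00349 without mouse 379). The log2 ratio to nuclear subunits was 0.04, and -0.057 with medians. Single values changed sign for mt-Atp8 (-0.043 with library totals, -0.076 to 0.24 leaving out a heart, negative without mouse 370, 380 or 381), mt-Atp6 (-0.089 to 0.60 leaving out a heart, negative without mouse 369, 370 or 381), mt-Nd5 (-0.040 with library totals, -0.028 to 0.087 leaving out a heart, negative without mouse 381), mt-Tp (-0.045 with library totals, -0.058 to 0.12 leaving out a heart, negative without mouse 369 or 381) and mt-Co3 (0.11 with copies summed). The causes were not tested. The share of all counts stayed higher in α1s/sα2s/s hearts throughout, by 1.28 to 1.79 percentage points leaving out a heart. Depth limits mt-Ta, mt-Tt, mt-Atp8 and the tRNA genes not tested. No paired analysis was possible because the labels give the genotypes no shared replicate numbers.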
